A study of Homo sapiens and Mus musculus with 24 samples.

Results

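The ZNF genes of human chromosome 19 were followed upon UV irradiation in HepG2, a human liver carcinoma line, and HEK293, a human embryonic kidney line. Members were protein-coding genes with a symbol of ZNF, digits and at most 1 letter, placed on chromosome 19 by the count files, whose nonirradiated samples averaged 0.5 CPM or more in either line (CPM, counts relative to the library total). There were 238 members of the 58381 human genes in the files. The files list 246 such ZNF genes on the chromosome, of which 230 passed in HepG2, 227 in HEK293, 219 in both lines and 8 in neither. The lowest mean that passed was 0.518 CPM for ZNF610 in HepG2 and 0.590 CPM for ZNF541 in HEK293, and the highest that failed was 0.444 CPM for ZNF418 in HepG2 and 0.491 CPM for ZNF208 in HEK293.

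The data are UPA-seq reads, that is, RNA-seq of the RNA that stayed in the aqueous phase of a phenol extraction after cells were irradiated with UV or left nonirradiated. UV links RNA to proteins that touch it, and linked RNA leaves the aqueous phase, so a value that fell stands for fewer reads recovered. From its RT-qPCR and northern blots, the study also proposes that the bonds made by UV hinder reverse transcription. Less RNA in the cell, less RNA recovered from it and poorer copying of the RNA cannot be told apart in these samples. Each line had 3 nonirradiated and 3 irradiated samples, and the labels name no other treatment. The labels do not say how the replicates were made, while the study's legends call them biological replicates, and p-values measure the spread between these samples.

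Most ZNF genes of chromosome 19 encode a KRAB box followed by an array of C2H2 zinc fingers. The fingers read DNA, often within transposable elements, and the KRAB box recruits TRIM28, also called KAP1, which gathers enzymes and proteins that form heterochromatin. The genes arose by repeated tandem duplication and lie in clusters, so neighbouring members tend to be close relatives. A KRAB box was found in 201 members by a search of the translated coding sequences. The encoded proteins held from 1 finger, in ZNF428, to 31 fingers, in ZNF91, with a median of 12.

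Adjacent fingers are joined by a short conserved linker. Linkers were found by a search for their residues, so the likeness of their bases was in part set by the search. Of the members, 204 encoded at least 1 such linker with the residues of the classical form, and 1350 linkers were found in all. The 15 bases of the linker had 137 spellings, and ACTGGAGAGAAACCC alone made up 275 linkers, or 20.4%. The first linker of members described below is printed from the hg38 transcripts, 5′ to 3′ on the strand of the gene, with the linker in capitals between the end of 1 finger and the start of the next.
ZNF471: catACTGGTGAAAAACCAtatgcatgt
ZNF154: cacACTGGAGAAAAGCCTtatgaatgt
ZNF506: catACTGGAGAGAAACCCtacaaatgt
ZNF91: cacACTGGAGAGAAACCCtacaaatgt
ZNF121: catACTGGGGAGAAACCCtatgaatgt
ZNF146: cacACTGGAGAAAAACCTtttgagtgt
ZNF787: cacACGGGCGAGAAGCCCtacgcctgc
These lie at chr19:56524749-56524775 (plus strand) for ZNF471, chr19:57702376-57702402 (minus) for ZNF154, chr19:19795194-19795220 (minus) for ZNF506, chr19:23362091-23362117 (minus) for ZNF91, chr19:9566591-9566617 (minus) for ZNF121, chr19:36236720-36236746 (plus) for ZNF146 and chr19:56088800-56088826 (minus) for ZNF787. ZNF506 and ZNF91 spell the linker with the same 15 bases. ZNF581, ZNF358 and ZNF428 encode 0 linkers of this form. Reads within such repeats may map to several members, and the treatment of such reads is not stated. In the median member, 1.27% of all 50-base words of the transcript also occurred in transcripts of other genes, and in 21 members at least 10% did, up to 36.1%.

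The HepG2 samples held 36573473 to 53511592 counts and the HEK293 samples 9444707 to 11188033. The nonirradiated HepG2 samples held 4040 counts or more of each of 8 hepatocyte genes such as ALB, and those of HEK293 at most 26 counts of any, while nonirradiated HEK293 samples held at least 2389 counts of NEFL. The other two HEK293 markers were low there, with 7 to 14 counts of PAX2 and 5 to 13 of NEFM. Replicate 1 stood apart from replicates 2 and 3 in both HEK293 groups and among the nonirradiated HepG2 samples. Levels are given as normalised CPM, which use library sizes adjusted by edgeR's TMM method. Members took 0.271% to 0.277% of the counts in nonirradiated and 0.0811% to 0.084% in irradiated HepG2 samples, and 0.659% to 0.762% and 0.288% to 0.356% in HEK293. Without TMM, with library totals alone, the median log2 fold change of all genes shifted by -1.30 in HepG2 and -0.76 in HEK293. Every rise and fall given here is therefore relative to the other genes of the library.

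In HepG2, reads of the ZNF genes of chromosome 19 mostly fell upon UV irradiation, relative to the other genes. Of 230 members tested, 128 fell and 34 rose at an adjusted p under 0.05 (edgeR quasi-likelihood test, Benjamini-Hochberg adjustment over 20117 genes), and 68 did not pass. These are 55.7% and 14.8% of the members, beside 40.7% decreased and 38.1% increased of all genes tested. The median log2 fold change of members was -0.58, and that of all genes was -0.08. The called decreases ran from -0.27 to -3.62 with a median of -1.22, and 23 members fell by more than 2 on the log2 scale. All irradiated samples lay below all nonirradiated samples for 137 members and above them for 35, while 42.8% and 39.6% of all genes had such separate groups. With library totals alone 216 members fell and 5 rose, and 24 of the 34 increases then had a log2 fold change below 0. That scaling shifted the median of all genes by -1.30, and the share of all genes called with it was not counted. Leaving out each sample in turn, 117 of the 128 decreases and 27 of the 34 increases were called in all 6 fits. Over all genes, 7280 of 8189 decreases and 6883 of 7660 increases were so kept.

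In HEK293 too, more members fell than rose. Of 227 members tested, 95 fell, 30 rose and 102 did not pass, which is 41.9% and 13.2%, beside 26.4% decreased and 24.2% increased of 20472 genes. The median log2 fold change was -0.33 over the members and -0.08 over all genes. The called decreases ran from -0.38 to -2.49 with a median of -0.95, and 1 member fell by more than 2. The groups did not overlap, with irradiated samples lower, for 102 members and, with irradiated samples higher, for 35, and this held for 32.1% and 27.1% of all genes. Scaled by library totals alone, 164 members fell and 4 rose, and 14 of the 30 increases had a log2 fold change below 0. The median of all genes shifted by -0.76 with that scaling, and the share of all genes called was not counted. With the replicate number as a block 114 members fell and 45 rose, beside 35.3% and 32.7% of all genes. Of the decreases 73, and of the increases 19, were called in all 6 fits without a sample. Over all genes, 3505 of 5405 decreases and 3675 of 4962 increases were so kept. The median member had 201 counts in the nonirradiated HEK293 samples and 396 in those of HepG2, and 15 members tested in HEK293 had a mean below 20.

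**Figure D1:**
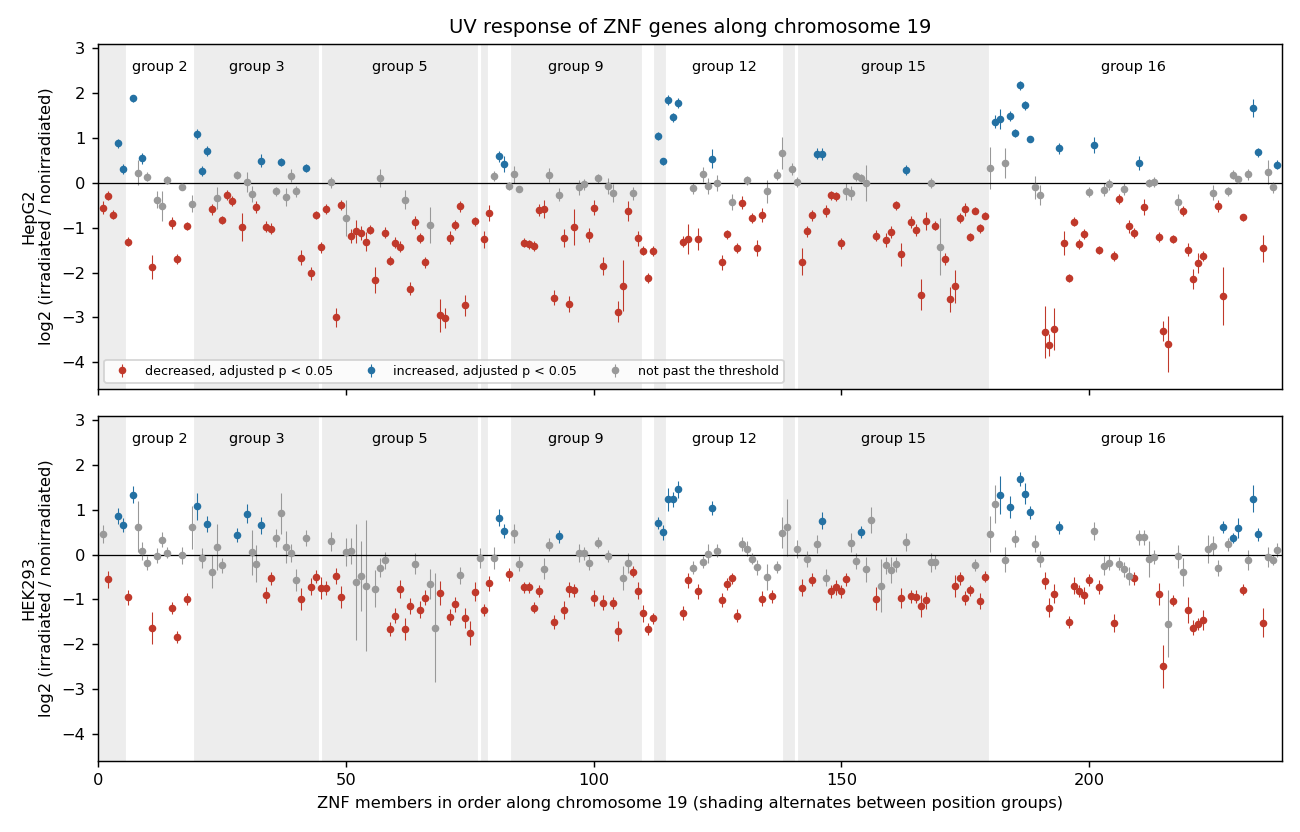
Log2 fold change of each member upon UV irradiation (vertical axis, bars are standard errors) in HepG2 (top) and HEK293 (bottom) against the order of the 238 members along chromosome 19. Red points fell and blue points rose at an adjusted p under 0.05, gray points did not pass, and red points outnumber blue ones in both lines, with 128 against 34 in HepG2 and 95 against 30 in HEK293.

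Of the 8 most decreased members named in HepG2, 5 lay at the end of the long arm. ZNF471 (chr19:56507843-56530221, plus strand, hg38) encodes a KRAB box and 15 fingers. Its normalised CPM was 22.2, 13.4 and 14.5 in nonirradiated and 1.42, 1.59 and 1.05 in irradiated HepG2 samples. The groups were far apart, and the log2 fold change was -3.62 (SE 0.24, adjusted p = 1.613e-06, edgeR). In HEK293 it was 8.20, 11.5 and 11.6 without and 4.20, 5.10 and 4.42 with irradiation, which did not overlap either (log2 fold change -1.18, SE 0.21, adjusted p = 0.001607).

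ZNF154 (chr19:57697367-57709194, minus strand), with a KRAB box and 10 fingers, is a gene often methylated in tumours. It was the only member among the 8 largest decreases of both lines. Its normalised CPM in HepG2 was 7.40, 5.19 and 5.35 without and 0.557, 0.529 and 0.724 with irradiation. In HEK293 it was 2.87, 1.94 and 2.35 without and 0.749, 0.464 and 0.111 with irradiation. Irradiated samples were lower throughout, by -3.30 in HepG2 (SE 0.22, adjusted p = 1.44e-06, edgeR) and -2.49 in HEK293 (SE 0.48, adjusted p = 0.002455) on the log2 scale.

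ZNF671, ZNF667 and ZNF470, also KRAB genes of this region, had HepG2 decreases of -3.60, -3.33 and -3.26 on the same scale (adjusted p of 0.0006012, 0.000652 and 0.0002059, edgeR). ZNF671 had only 2.59, 1.09 and 0.942 normalised CPM without and 0.0619, 0.0755 and 0.230 with irradiation in HepG2, separate groups at low levels. In HEK293 its log2 fold change of -1.54 did not pass (SE 0.74, adjusted p = 0.1087, and 0.009999 with the replicate number as a block). ZNF667 shares 1.54% of its exon bases with the antisense gene ZNF667-AS1, and reads of the 2 strands were not counted apart. Leaving out 1 sample kept these calls but moved the sizes, with ZNF667 at -4.78 and ZNF470 at -4.0 without irradiated HepG2 replicate 1, and ZNF671 at -4.44 without irradiated replicate 3.

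The other 3 of these members lay in the block near the centromere. ZNF99 (chr19:22752183-22784107, minus strand, 21 fingers) held 2.79, 2.20 and 2.39 normalised CPM without and 0.309, 0.302 and 0.296 with irradiation. Its groups were far apart, and it fell by 3.01 on the log2 scale (SE 0.22, adjusted p = 2.604e-06, edgeR). It was not tested in HEK293, where the nonirradiated mean was 0.667 counts. ZNF506 and ZNF492 of the same block fell by 3.00 and 2.95 in HepG2 (adjusted p of 2.989e-06 and 8.225e-05). In ZNF492, 33.3% of the 50-base words of the transcript also occur in other genes, so its reads are uncertain.

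In HEK293 the largest decreases after ZNF154, among members with at least 20 counts and separate groups, belonged to ZNF121, ZNF726, ZNF793, ZNF714, ZNF780B, ZNF738 and ZNF699, between -1.84 and -1.64 on the log2 scale (adjusted p at most 0.004972, edgeR). ZNF121 (chr19:9560353-9584533, minus strand) has 9 fingers and no KRAB box by this search. Its normalised CPM in HEK293 was 137, 134 and 138 without and 43.6, 35.0 and 35.7 with irradiation. In HepG2 it was 47.4, 59.4 and 56.7 without and 18.7, 15.7 and 15.8 with irradiation. Both lines thus showed separate groups, with decreases of 1.84 in HEK293 (SE 0.14, adjusted p = 3.564e-05) and 1.70 in HepG2 (SE 0.11, adjusted p = 1.317e-06).

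ZNF726 (chr19:23914876-23945159) held 16.99, 11.2 and 10.4 normalised CPM without and 3.60, 4.87 and 2.98 with irradiation in HEK293, and it fell by 1.75 (SE 0.27, adjusted p = 0.0007218, edgeR). In HepG2 it had a mean of 1.33 counts without irradiation and was not tested. ZNF780B, ZNF714, ZNF793 and ZNF699 fell in HepG2 too, with log2 fold changes of -2.12, -1.74, -2.87 and -1.88 (adjusted p at most 0.0002102). ZNF780B lies beside its relative ZNF780A, which also fell in both lines, by 1.52 in HepG2 and 1.42 in HEK293 (adjusted p of 2.706e-06 and 4.818e-05).

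The members that rose most were the same 4 genes in both lines, beside 1 that differed. ZNF581 (chr19:55635459-55645622, plus strand, 4 fingers) held 10.9, 13.2 and 14 normalised CPM without and 58.7, 57.2 and 57.5 with irradiation in HepG2. In HEK293 it held 17.8, 20.7 and 22.4 without and 56.5, 66.3 and 74.4 with irradiation. It rose by 2.18 (SE 0.10, adjusted p = 2.982e-07, edgeR) and 1.69 (SE 0.15, adjusted p = 5.579e-05) with no overlap of the groups. Of its exon bases 23.4% are shared with CCDC106 and ZNF580, and a read on them was counted for each gene.

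ZNF787 (chr19:56087366-56121280, minus strand, 7 fingers) shares no exon base with another gene. Its normalised CPM in HepG2 was 13.8, 17.1 and 18.3 without and 55.1, 54.8 and 53.1 with irradiation. In HEK293 it was 8.54, 11.8 and 8.78 without and 21.1, 20.8 and 32.9 with irradiation. The groups were separate, with increases of 1.73 (SE 0.10, adjusted p = 8.721e-07, edgeR) and 1.36 (SE 0.23, adjusted p = 0.001069). ZNF358 and ZNF428 rose by 1.89 and 1.78 in HepG2 and by 1.34 and 1.46 in HEK293 (adjusted p at most 0.000326). ZNF575 completed the 5 in HepG2 with 1.85 (adjusted p = 1.444e-06) and ZNF837 in HEK293 with 1.25 (adjusted p = 0.008443). With library totals alone the values of ZNF581, ZNF358, ZNF575, ZNF428, ZNF787 and ZNF837 stayed above 0 in both lines, at 0.36 to 0.93, but ZNF837 in both lines and ZNF575 and ZNF787 in HEK293 no longer passed.

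**Figure D2:**
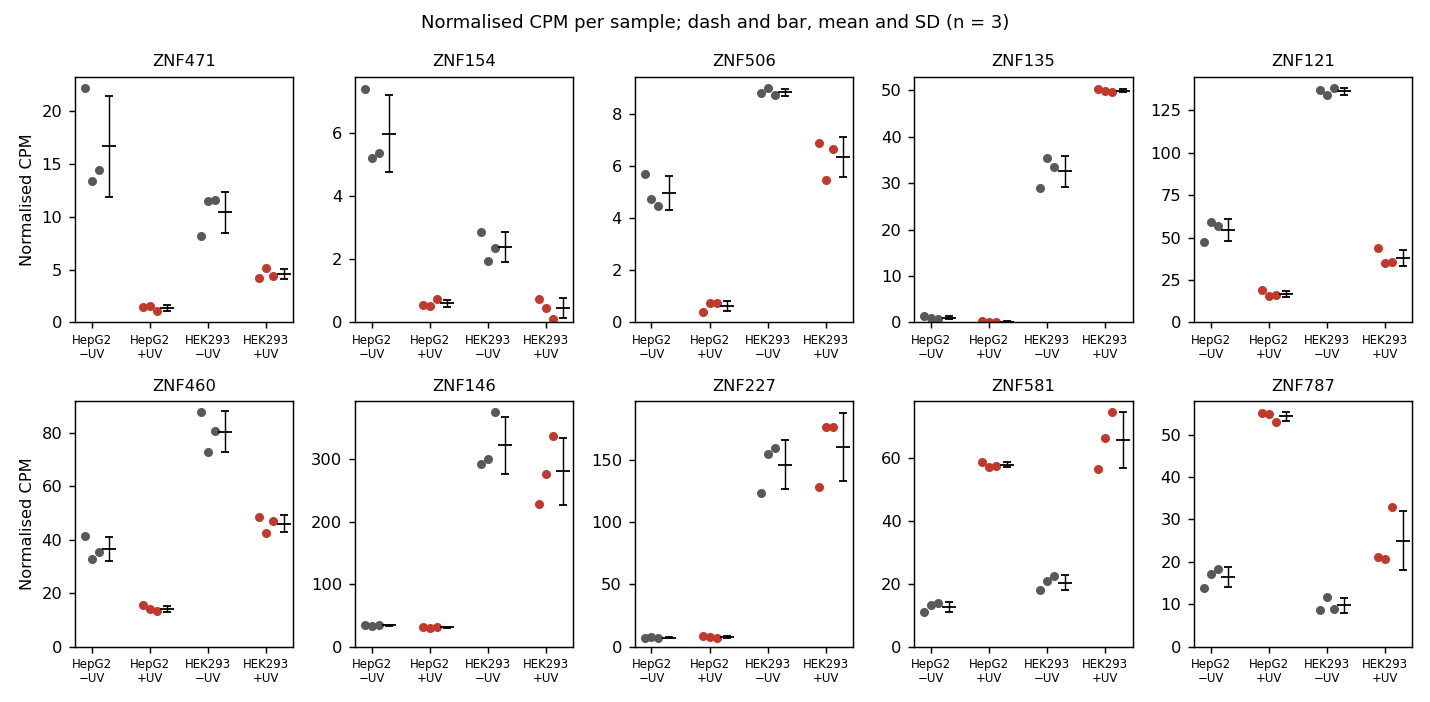
Normalised CPM (vertical axes, each from 0) of 10 named members in the 3 nonirradiated (gray) and 3 irradiated (red) samples of each line, with the mean and SD beside the points. ZNF471, ZNF154, ZNF506, ZNF121 and ZNF460 are lower in every irradiated sample of both lines, ZNF581 and ZNF787 are higher, and ZNF135 is lower in HepG2 and higher in HEK293.

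None of the 6 members that rose most in either line had a KRAB box. Of 196 members with a KRAB box tested in HepG2, 119 fell and 19 rose, with a median log2 fold change of -0.71. Of 34 without one, 9 fell and 15 rose, with a median of 0.38. In HEK293, 89 of 191 with a KRAB box fell and 17 rose (median -0.49), and 6 of 36 without one fell and 13 rose (median 0.42). The members without a KRAB box had a median of 9.5 fingers, and those with one had 13. Their transcripts were also richer in G and C, with a median of 61.0% against 42.0% in HepG2. Their 3′ UTRs were shorter, with a median of 1095 against 1876.5 bases in HepG2 and 952.5 against 1870 in HEK293. These counts describe the members, and the part of the KRAB box, 3′ UTR length, base composition or finger number in them was not tested.

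Other genes of the chromosome and other ZNF genes gave different distributions. The 872 other protein-coding genes of chromosome 19 tested in HepG2 had a median of 0.92, with 16.3% decreased and 67.1% increased, and the 866 tested in HEK293 had 0.70, with 6.58% and 51.5%. The 223 ZNF genes of other chromosomes had a median of -0.21 in HepG2, with 43% decreased and 25.6% increased, and the 234 tested in HEK293 had -0.22, with 34.6% and 16.2%. All protein-coding genes had medians of 0.17 and 0.01. In both lines the median of the chromosome 19 members was the lowest of these groups, with no test of the difference. The groups also differed in their transcripts. In HepG2 the members had a median 3′ UTR of 1739.5 bases and 42.39% G and C. The other protein-coding genes of the chromosome had 555 bases and 60.69%, and the ZNF genes elsewhere 1666 bases and 44.97%. The part of these properties in the difference was not tested.

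**Figure D3:**
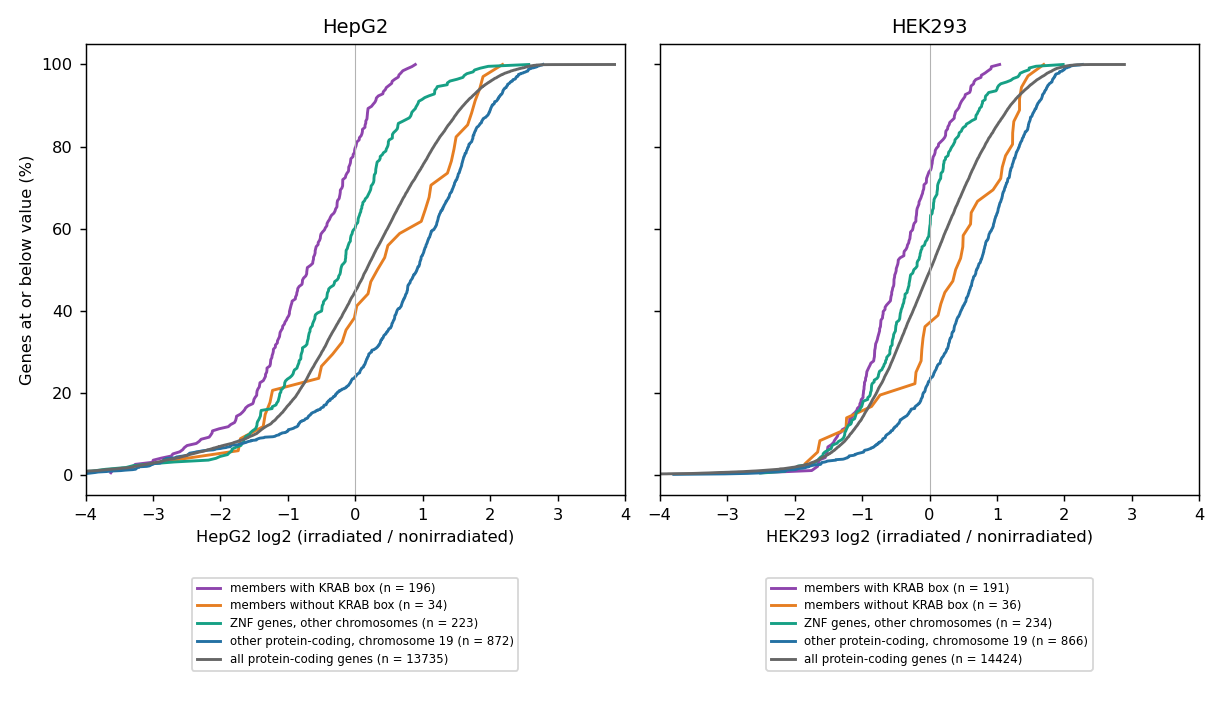
Cumulative share of genes (vertical axis, percent) at or below each log2 fold change upon UV irradiation (horizontal axis, from -4 to 4) in HepG2 (left) and HEK293 (right). The curve of KRAB members lies left of all protein-coding genes over its middle part, with medians of -0.71 and -0.49, and other protein-coding genes of chromosome 19 lie to the right, with medians of 0.92 and 0.70.

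The members were divided by position, with a new group wherever the starts of consecutive ZNF genes lay 1 Mb or more apart. This gave 16 groups between 2.82 and 58.48 Mb of chromosome 19. Group 5 (19.67 to 24.13 Mb) is the block of KRAB genes beside the centromere and holds ZNF91, a gene known for repressing SVA elements, and ZNF93, known for repressing LINE-1 elements. In this group 24 of 29 members tested in HepG2 fell and 0 rose, with a median of -1.12, and in HEK293 16 of 29 fell and 0 rose, with a median of -0.77. Beside these counts and those of the groups below, 40.7% of all genes fell and 38.1% rose in HepG2, and 26.4% and 24.2% in HEK293. In HepG2, group 5 had a median 3′ UTR of 2386 bases and 36.68% G and C, beside 1739.5 bases and 42.39% over the members. The part of these properties in the position groups was not tested. With 31 members, group 5 was the group of 10 or more members with the lowest median in each line. Of the 37 ZNF genes annotated there, 6 were too low in both lines to be members.

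ZNF91 and ZNF93 were chosen after their values were seen. ZNF91 (chr19:23304991-23395560, minus strand) held 33.0, 25.3 and 24.5 normalised CPM without and 14.7, 14.8 and 13.8 with irradiation in HepG2. It fell by 0.94 (SE 0.12, adjusted p = 9.581e-05, edgeR), and by 1.11 in HEK293 (SE 0.17, adjusted p = 0.0006611). In ZNF93 the groups overlapped in HEK293, with 3.55, 1.86 and 2.27 against 3.15, 2.55 and 2.32, and its log2 fold changes of -0.78 in HepG2 (SE 0.40, adjusted p = 0.1023) and 0.05 in HEK293 (SE 0.31, adjusted p = 0.8956) did not pass.

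Group 9 (36.18 to 37.82 Mb, 26 members) had medians of -0.62 in both lines, with 16 decreased and 0 increased in HepG2 and 14 and 1 in HEK293. Group 15 (51.57 to 53.58 Mb, 38 members, of which 37 encode a KRAB box) had medians of -0.82 in HepG2, with 26 decreased and 3 increased of 36, and -0.53 in HEK293, with 18 and 2 of 35. The 3 members of group 10, ZNF546, ZNF780B and ZNF780A, fell in both lines. Groups 2, 3 and 12 were more mixed, with medians of -0.42, -0.27 and -0.19 in HepG2 and -0.01, 0.04 and -0.28 in HEK293.

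Group 16 (55.48 to 58.48 Mb, 59 members) held both the largest decreases and the largest increases. It opens with 9 members without a KRAB box, ZNF628, ZNF579, ZNF524, ZNF865, ZNF784, ZNF580, ZNF581, ZNF787 and ZNF444, between 55.48 and 56.16 Mb. Of these, 7 rose in HepG2 and 5 in HEK293, and 0 fell. This run was chosen after the values were seen. ZNF580 and ZNF581 share exon bases, and a read on them was counted for both, so their values are not independent. Of the 49 other members of the group tested in HepG2, 27 fell and 6 rose (median -0.54), and in HEK293 20 fell and 6 rose (median -0.30). Neighbouring members along the chromosome differed by a median of 0.73 in log2 fold change in HepG2 and 0.56 in HEK293, beside 0.98 and 0.74 over all pairs of members.

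Some properties of the transcripts went along with the response over the members. The log2 fold change had a Spearman's ρ of -0.54 in HepG2 (n = 230) and -0.59 in HEK293 (n = 227) with the length of the 3′ UTR of the canonical transcript. Over all protein-coding genes tested the values were -0.50 and -0.53, so the relation was of like size there. Within the KRAB members it was -0.46 and -0.54. With the GC content of the transcript ρ was 0.47 and 0.49 over the members. Over all protein-coding genes tested it was 0.40 and 0.43, and within the KRAB members it was 0.28 and 0.30. With the number of fingers ρ was -0.24 and -0.20 over the members. With the nonirradiated level per kilobase it was 0.04 and -0.10, beside 0.38 and 0.23 over all protein-coding genes tested. The total exon length gave -0.47 and -0.45 over the members, beside -0.48 and -0.51 over those genes. The coding length gave -0.20 and -0.15, beside -0.40 and -0.41. These are descriptions across genes of the same libraries, and genes are not independent replicates.

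Members were split into 3 parts of near equal size by 3′ UTR length. In the part with the longest ones (2460 to 12019 bases), 64 of 79 fell in HepG2 and 1 rose, with a median of -1.23. In the part with the shortest ones (up to 1005 bases), 20 of 74 fell and 22 rose, with a median of 0.04. The HEK293 counts were 54 and 1 of 76 (median -0.82) and 9 and 23 of 75 (median 0.22). Among KRAB members alone the medians in HepG2 were -1.21 for the longest and -0.15 for the shortest 3′ UTRs, and in HEK293 -0.82 and 0.05. ZNF154, with 5360 bases, and ZNF471, with 4264, were among the longest, and ZNF787, with 657, among the shortest. ZNF671 fell with a 3′ UTR of only 730 bases.

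**Figure D4:**
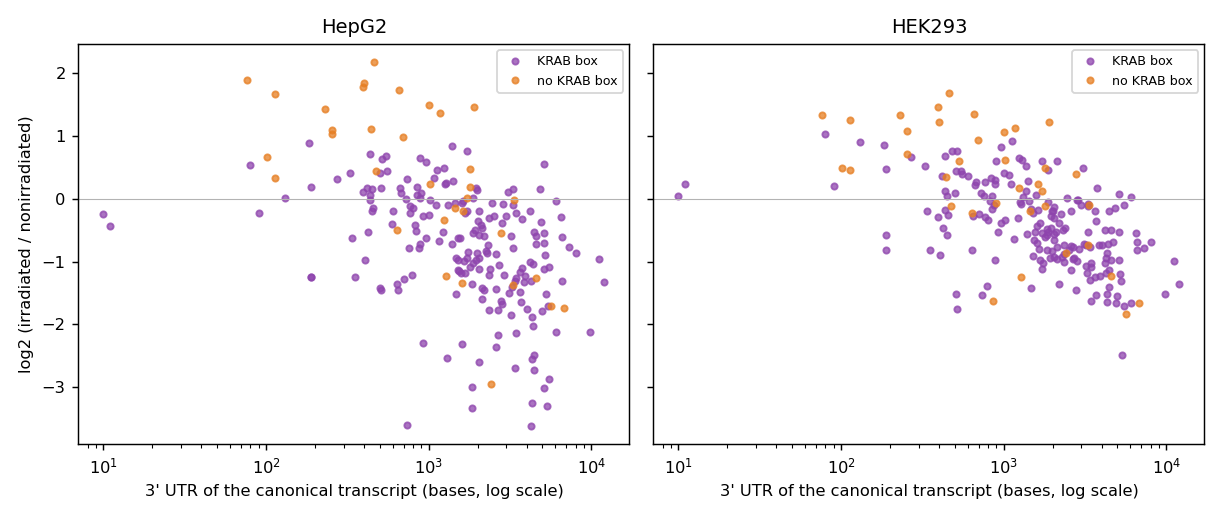
Log2 fold change upon UV irradiation (vertical axis) against the length of the 3′ UTR in bases (horizontal axis, log scale, values under 10 drawn at 10) for each member in HepG2 (left) and HEK293 (right). Purple members encode a KRAB box and orange ones do not, and values are lower at longer 3′ UTRs (ρ of -0.54 and -0.59).

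Both lines were then compared for the same members. Of the 219 tested in both, 86 fell in both, 23 rose in both and 53 passed in neither. Another 32 fell only in HepG2 and 7 only in HEK293 by this threshold, and 11 rose only in HepG2 and 6 only in HEK293. With the replicate block in HEK293, where the numbers were taken to pair the samples, 97 fell in both, 27 rose in both and 39 passed in neither. The same counts were not made over all genes tested in both lines. Whether these shared calls are more than is usual there is therefore not known. Over these members ρ between the lines was 0.83 for the log2 fold changes, beside 0.86 over 16759 genes, and 0.46 for the nonirradiated levels per kilobase. The lines were sequenced on different machine models and at different depths, so line, machine and depth cannot be told apart.

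The difference between the lines in the response was tested as an interaction term. Of the members 35, or 16%, were more negative in HepG2 and 2, or 0.913%, more negative in HEK293 (adjusted p under 0.05, edgeR), beside 4.63% and 3.86% of all genes. The median difference, HepG2 minus HEK293, was -0.25 over the members and 0.11 over all genes. The log2 fold changes of all genes were spread more widely in HepG2, with quartiles of -1.11 and 0.82, than in HEK293, with -0.79 and 0.60. The part of this wider spread in the counts of members was not tested. With the block the counts were 53 and 5, or 24.2% and 2.28%, beside 8.47% and 14.4% of all genes. All 35 remained with the block. Without irradiated HepG2 replicate 3 the count was 21, and 18 of the 35 were called in all 12 fits that left out 1 sample. Scaled by library totals alone, the counts were 96 and 0, and the share of all genes was not counted for that scaling. Of the 35, 32 encode a KRAB box, as do 186 of the 219 tested.

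ZNF135 (chr19:58059239-58086310, plus strand, KRAB box and 16 fingers) had the largest difference and was the only member that fell in 1 line and rose in the other by the fits without the block. With the block in HEK293 there were 4, and the others were ZNF554, ZNF226 and ZNF530. Its normalised CPM in HepG2 was 1.31, 0.845 and 0.775 without and 0.371, 0 and 0.0987 with irradiation. In HEK293 it was 28.9, 35.4 and 33.5 without and 50.4, 49.9 and 49.8 with irradiation. The groups were separate in each line, lower upon irradiation in HepG2 (log2 fold change -2.53, SE 0.65, adjusted p = 0.005888, edgeR) and higher in HEK293 (0.62, SE 0.13, adjusted p = 0.003577). Under library totals alone the HEK293 value was -0.15. The difference was -3.20 (SE 0.53, adjusted p = 0.002535). Without irradiated HepG2 replicate 1 the HepG2 value was -4.15 and the difference -4.79, and both still passed. ZNF135 shares 32.6% of its exon bases with ZSCAN18, and reads on those bases were counted for both.

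ZNF506 (chr19:19785839-19821751, minus strand, KRAB box and 8 fingers) held 5.70, 4.74 and 4.47 normalised CPM without and 0.402, 0.755 and 0.724 with irradiation in HepG2. In HEK293 it held 8.79, 8.98 and 8.71 without and 6.89, 5.45 and 6.63 with irradiation. The groups were separate in both lines and much closer in HEK293, where the log2 fold change was -0.48 (SE 0.18, adjusted p = 0.04798, edgeR). The difference was -2.59 (SE 0.29, adjusted p = 0.0001973). ZNF667 and ZNF471 differed by -2.80 (SE 0.57, adjusted p = 0.009567) and -2.52 (SE 0.36, adjusted p = 0.0008586), and that of ZNF667 was -4.20 without irradiated HepG2 replicate 1. The HEK293 calls of ZNF667 and ZNF506 were each kept in 1 of the 6 fits that left out 1 sample.

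Both members more negative in HEK293 were close to the threshold. ZNF738 held 1.46, 1.61 and 1.66 normalised CPM without and 1.08, 1.02 and 1.55 with irradiation in HepG2, and the highest irradiated value passed the lowest nonirradiated one. In HEK293 it held 5.66, 8.82 and 7.27 without and 2.10, 2.55 and 2.21 with irradiation, with separate groups. The difference was 1.21 (SE 0.32, adjusted p = 0.03585, edgeR). That of ZNF580 was 0.70 (SE 0.20, adjusted p = 0.04727, edgeR). ZNF580 rose in HepG2 by 1.12 (SE 0.09, adjusted p = 6.29e-06), and its HEK293 value of 0.35 did not pass (adjusted p = 0.1606). It shares exon bases with ZNF581, and a read on them was counted for both.

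**Figure D5:**
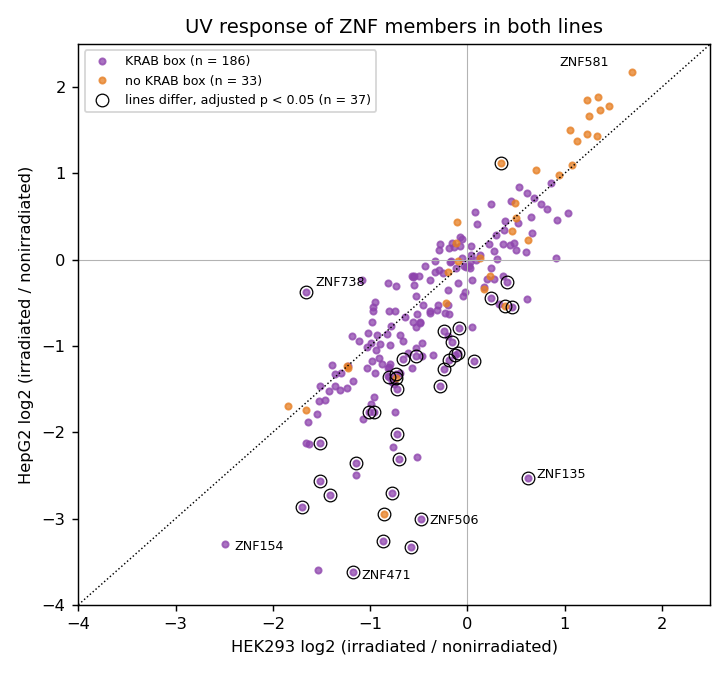
Log2 fold change upon UV irradiation in HepG2 (vertical axis) against HEK293 (horizontal axis) for 219 members, purple with and orange without a KRAB box. Circled members differ between the lines at an adjusted p under 0.05 (37 in all), most of them below the dotted line of equal values, with ZNF135 lowest against its HEK293 value.

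The members at the highest levels per kilobase of exon did not share a response. ZNF146, a protein made almost wholly of zinc fingers, stood first in HEK293 with 77.8 normalised CPM per kilobase and second in HepG2 with 8.18, where the median members had 3.21 and 1.04. Its HepG2 values were 34.2, 33.2 and 34.5 normalised CPM without and 30.8, 30.3 and 31.4 with irradiation, separate but close (log2 fold change -0.14, SE 0.06, adjusted p = 0.07338, edgeR, and 0.02245 by DESeq2's test). In HEK293 they were 293, 300.3 and 375 without and 229, 277 and 336 with irradiation, which overlapped (-0.20, SE 0.17, adjusted p = 0.364, and 0.01168 with the replicate block).

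ZNF460, a KRAB gene, stood first in HepG2 with 10.4 normalised CPM per kilobase and, after ZNF146 and ZNF227, in the third place in HEK293 with 22.9. It fell by 1.36 in HepG2 (SE 0.11, adjusted p = 3.705e-06, edgeR) and by 0.81 in HEK293 (SE 0.13, adjusted p = 0.0009887). ZNF227, second in HEK293 with 28.8, held 124, 155 and 160 normalised CPM without and 128, 176 and 176 with irradiation there, which overlapped. Its log2 fold changes of 0.06 in HepG2 and 0.13 in HEK293 did not pass (adjusted p of 0.5912 and 0.5359). ZNF121, described above, took the third place in HepG2 with 7.52.

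Other genes of the KRAB zinc finger pathway were read from a list of 22 genes, and all were tested in both lines. The counts cover the whole list, while the genes described singly below were picked by no set rule. In HepG2, 10 fell, 6 rose and 6 did not pass, with a median of -0.04, or 45.5% and 27.3%, beside 40.7% and 38.1% of all genes. In HEK293, 10 fell, 2 rose and 10 did not pass, with a median of -0.21, or 45.5% and 9.09%, beside 26.4% and 24.2%. With the replicate block in HEK293, 11 fell and 6 rose. With library totals alone the medians were -1.35 and -0.96, and of the increases only that of DAXX stayed above 0 in HepG2, at 0.03, and in HEK293, at 0.07. TRIM28, which binds the KRAB box and itself lies on chromosome 19, rose by 1.07 in HepG2 (SE 0.08, adjusted p = 3.517e-06, edgeR). In HEK293 it held 363, 177 and 175 normalised CPM without and 628, 267 and 213 with irradiation. Replicate 1 was the highest in both groups and the groups overlapped (0.63, SE 0.42, adjusted p = 0.2336). Within each of the 3 same-numbered pairs the irradiated sample was higher, and with the replicate block TRIM28 rose by 0.56 (SE 0.08, adjusted p = 1.815e-08). With library totals alone its values were -0.23 and -0.17. SETDB1, the H3K9 methyltransferase brought by TRIM28, had values of 0.09 and -0.08 that did not pass (adjusted p of 0.3488 and 0.6496).

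CBX5, which encodes the heterochromatin protein HP1α, fell by 2.05 in HepG2 and 2.11 in HEK293 (adjusted p of 3.964e-06 and 3.118e-05, edgeR), while CBX1, for HP1β, rose by 0.69 and 0.43 (adjusted p of 0.001263 and 0.02672), which were -0.62 and -0.33 with library totals alone. The chromatin remodeller ATRX fell by 1.10 and 1.05, and its partner DAXX rose by 1.34 and 0.85 (adjusted p at most 0.009553). TASOR and MPHOSPH8, subunits of the HUSH silencing complex, fell by 0.95 and 0.46 in HepG2 and by 0.90 and 0.40 in HEK293 (adjusted p at most 0.02531). PPHLN1, which encodes another HUSH subunit, rose by 0.26 in HepG2 (SE 0.07, adjusted p = 0.008613), while its HEK293 value of 0.19 did not pass (adjusted p = 0.3477, and 0.03373 with the block).

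Shared sequence was read beside the counts. Members sharing no exon base with another gene had medians of -0.57 in HepG2 (100 tested, 57 decreased, 16 increased) and -0.29 in HEK293 (97 tested, 37 decreased, 13 increased), and those sharing some had -0.60 and -0.38. Members with at least 10% of their 50-base words in other genes had medians of -0.49 in HepG2 (20 tested) and -0.38 in HEK293 (21 tested), and the others -0.58 and -0.31. Over the members the share of such words had a ρ with the log2 fold change of -0.39 in HepG2 and -0.42 in HEK293, and its part in the decreases was not tested.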

How the data were processed

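Total RNA of HepG2 and HEK293 (3 nonirradiated and 3 UV-irradiated samples each) was depleted of ribosomal RNA and sequenced by the authors. They mapped reads to hg38 with TopHat2 2.1.1 and counted them on GENCODE 28 exons with featureCounts 1.5.3 (HepG2) or 1.6.1 (HEK293). The deposited values are raw counts per gene, without normalization. Per the file headers, reads on several genes were counted for each, and no option for strand or multiple mapping is named. The labels and the study's methods name different library kits, so strandedness is not certain. The methods also give HEK293T where the labels give HEK293. Samples were grouped by the labels, and mouse samples were not used here.

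Genes whose nonirradiated samples averaged 0.5 CPM or more were fitted with edgeR 4.0.16 in R 4.3.3 (TMM, quasi-likelihood test, Benjamini-Hochberg adjustment), in each line and, for genes passing in both, with a UV by line interaction. Standard errors come from the F statistic. Normalised CPM per kilobase uses the exon length in the files. Symbols, classes and canonical transcripts come from GENCODE 44 (hg38), matched by ID for 98.93% of genes, and give 3′ UTR, GC content, fingers and linkers. The KRAB box was called by a position weight matrix of 34 residues at 15 bits or more. Members, gene lists and tests were chosen with earlier results of these data known. The text names, in each line, the 8 most decreased and 5 most increased members past the threshold (mean of at least 20 counts, groups not overlapping), the 3 at the highest level per length, and up to 4 members in each direction of the difference between lines.

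Deviations from the group means correlated between same-numbered HEK293 samples (0.654, 0.368 and 0.461) but not in HepG2 (-0.009, 0.007 and -0.024). Replicate numbers were therefore taken to pair the samples in HEK293 only. Unlike-numbered HEK293 replicates 2 and 3 also correlated, at 0.262 and 0.281, so the pairing of these replicates is less certain. The main HEK293 fits used no block. Alternatives were DESeq2 1.42.0 size factors and test, library totals, TMM over all 12 samples for the difference, other filters, a replicate block, members sharing no exon base, and fits without each sample. A fit without replicate 1 of both groups was added after seeing the data. Code was tested on simulated counts. Other work used Python 3.11.15, numpy 2.4.6, pandas 2.3.3 and matplotlib 3.10.9.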

Additional observations from a re-analysis of the deposited data

Results flagged for a closer look

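The response of 6 named members differed between the lines by the interaction test (edgeR, adjusted p under 0.05). The HepG2 minus HEK293 differences in log2 fold change were -3.20 for ZNF135, -2.80 for ZNF667, -2.59 for ZNF506 and -2.52 for ZNF471, and 1.21 for ZNF738 and 0.70 for ZNF580. The differences of ZNF506 and ZNF471 passed the threshold in every alternative fit of the difference that was run. Those of ZNF135 and ZNF667 passed in every alternative fit that tested them. The filter of at least 10 counts in every sample removed both, so that fit says nothing of them. The differences of ZNF738 and ZNF580 did not pass in 26 alternative fits between them. The rule for single outlying samples was not applied, since every group held 3 samples.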

How the results depend on the processing

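The members' median log2 fold change was below 0 in both lines under every alternative. With library totals alone it was -1.89 in HepG2, where 216 members fell and 5 rose. In HEK293 it was -1.09, where 164 fell and 4 rose. The lines then differed for 96 and 0 members. The shares of all genes called with this scaling were not counted. The other moved HepG2 medians were -0.67 with 0.5 CPM over all samples, -0.65 with DESeq2 size factors and with its test, -0.77 with a minimum of 10 counts per sample, -0.64 with no filter and -0.67 without replicate 1 of both groups. Those of HEK293 were -0.36 with 0.5 CPM over all samples, -0.42 with at least 10 counts and -0.29 over members sharing no exon base. Restricted to such members the counts were 57 decreased and 16 increased in HepG2, 37 and 13 in HEK293, and 14 and 1 for the difference, since fewer members were counted. Members more negative in HEK293 numbered 1 with DESeq2 size factors and with no filter, 0 with at least 10 counts and 4 without replicate 1 of both groups. With the replicate block the difference gave 53 and 5 members. Without 1 sample, the medians ranged from -0.65 to -0.58 in HepG2 and from -0.37 to -0.26 in HEK293, members more negative in HepG2 from 21 to 38, and those more negative in HEK293 from 0 to 3. The block turned no direction of a named member, and it gave 114 decreased and 45 increased members in HEK293. The HepG2 value of ZNF227, not called, turned to -0.03 with 0.5 CPM over all samples, -0.01 with DESeq2 size factors and test, -0.21 with at least 10 counts, -0.04 to 0.11 in the fits without 1 sample (below 0 without nonirradiated replicate 1) and -0.09 without replicate 1 of both groups. With library totals alone ZNF227 was at -1.25 in HepG2 and -0.62 in HEK293, ZNF580 at -0.18 and -0.43, and ZNF135 at -0.15 in HEK293. The causes of these changes were not tested. HEK293 libraries held fewer counts than those of HepG2, and the part of depth in the precision of low members was not tested.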
